A study of Homo sapiens with 10 samples.

Results

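The genes described are 10 chemokines of the CXCL and CCL families: CXCL8, CXCL2, CXCL3, CXCL9, CXCL10, CXCL11, CCL2, CCL3, CCL4 and CCL5. They were listed by symbol because CXCL10 and CCL3 were lower with the compound JOA in NB4 cells and CXCL8 moved in opposite directions in NB4 and Kasumi-1 cells, so their change with JOA is given as values, with no test. Of the 10, 9 had a value among the 21961 genes of the NB4 table, 5 were found by symbol among the 10802 of the Kasumi-1 table, and 5 were in both. CXCL9 was found by symbol in neither and was not analysed here, and CXCL3, CCL2, CCL3 and CCL4 were not analysed in Kasumi-1. Many Kasumi-1 rows had no symbol, so these genes may be among them.

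The RNA came from Kasumi-1, an acute myeloid leukaemia line with the RUNX1-RUNX1T1 fusion, and NB4, an acute promyelocytic leukaemia line with the PML-RARA fusion. Each line was kept for 48 h with a control treatment or with 1 µM JOA, in 3 control and 3 JOA libraries of Kasumi-1 and 2 control and 2 JOA libraries of NB4. One label of the treated NB4 libraries, their source, reads I13. Everything else in their labels reads JOA, and they were taken as JOA. The labels name no separate cultures, so the spread between libraries, and every p-value below, may be technical.

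Chemokines are small secreted proteins that bind G protein-coupled receptors and direct the migration of leukocytes. CXCL8 attracts neutrophils through CXCR1 and CXCR2, and CXCL2 and CXCL3 do so through CXCR2. CXCL9, CXCL10 and CXCL11 attract activated T and NK cells through CXCR3. CCL2, CCL3, CCL4 and CCL5 attract monocytes and lymphocytes through CC receptors such as CCR1 and CCR2. Their genes are switched on within hours by NF-kB, AP-1 and C/EBP factors, those of the CXCR3 ligands also by interferon regulatory factors, and many of their mRNAs are short-lived.

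The 6 CXCL genes lie on chromosome 4 and the 4 CCL genes on chromosome 17 (GRCh38, GENCODE). CXCL8 was annotated at chr4:73740506-73743716 on the plus strand, 293 kb before CXCL3, which lies 58.2 kb from CXCL2. CXCL10, at chr4:76021117-76023497 on the minus strand, stands 10.2 kb from CXCL11 and 13.6 kb from CXCL9. CCL3, at chr17:36088256-36090169 on the minus strand, is 13.4 kb from CCL4 and 207 kb from CCL5.

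The upstream DNA is shown because several of these genes share a short element there that few other genes have. RefSeq start sites on GRCh38.p14 were available for 7 of the 10 genes. The 250 bases before each site were searched on both strands for GGAANTTCC, 1 narrow form of an NF-kB element. Other forms of it were not searched. CXCL8, CXCL2, CXCL3, CXCL10 and CXCL11 held it, against 0.826% of all 35116 such windows, while the windows of CXCL9 and CCL3 held no match. The element is in capitals below, with 10 bases on either side, each on its gene's own strand, in the order CXCL8 (chr4:73740468-73740496, plus), CXCL2 (chr4:74099254-74099282, minus), CXCL3 (chr4:74038749-74038777, minus), CXCL10 (chr4:76023655-76023683, minus) and CXCL11 (chr4:76036127-76036155, minus).
CXCL8: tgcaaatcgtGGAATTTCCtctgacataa
CXCL2: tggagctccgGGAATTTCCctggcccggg
CXCL3: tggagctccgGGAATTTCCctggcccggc
CXCL10: aggagcagagGGAAATTCCgtaacttgga
CXCL11: actcaaagagGGAAATTCCtgtgccataa
The 3 neutrophil attractants had the letters GGAATTTCC and the 2 CXCR3 ligands GGAAATTCC, which are the same element read from opposite strands. It began 91, 77, 78, 176 and 75 bases before the start site of CXCL8, CXCL2, CXCL3, CXCL10 and CXCL11. The stretches of CXCL2, CXCL3 and CXCL11 lie inside the GENCODE extent of their genes, which includes transcripts that begin farther upstream.

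Longer stretches before the GENCODE start are shown for the 3 genes with the largest changes in NB4 among those tested, on the log2(TPM + 1) scale, CXCL8 (chr4:73740399-73740505, plus), CXCL10 (chr4:76023498-76023727, minus) and CCL3 (chr17:36090170-36090269, minus). Capitals mark GGAANTTCC together with TGANTCA, 1 form of an AP-1 element. They also mark 1 form of an interferon-stimulated response element, GAAA, any 2 bases and GAAA again. Other forms of these elements were not searched, and the lower-case letters may hold some.
CXCL8: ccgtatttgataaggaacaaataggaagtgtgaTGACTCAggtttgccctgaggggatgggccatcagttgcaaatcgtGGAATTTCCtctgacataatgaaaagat
CXCL10: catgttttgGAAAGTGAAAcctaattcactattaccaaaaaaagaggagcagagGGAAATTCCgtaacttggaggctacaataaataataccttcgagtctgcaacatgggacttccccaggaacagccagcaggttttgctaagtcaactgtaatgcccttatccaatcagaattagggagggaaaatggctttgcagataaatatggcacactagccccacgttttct
CCL3: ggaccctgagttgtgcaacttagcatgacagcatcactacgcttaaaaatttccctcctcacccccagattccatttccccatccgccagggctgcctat
Distances below run to the RefSeq start, which for CXCL8 lies inside the GENCODE gene, beyond the end of the printed stretch. TGACTCA stood in the windows of CXCL8, 137 bases before its RefSeq start, and of CXCL11, 87 bases before its own. TGANTCA stood in 6.57% of all windows. The interferon element stood in those of CXCL10 and CXCL9, 221 and 171 bases before their starts, and in 3.02% of all windows. No marked motif overlapped another. The CCL3 stretch holds none of the 3 in these letters. These are matches of letters, and binding was not measured.

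In NB4, the mRNA of the listed chemokines was mostly CCL5, CXCL8, CXCL10 and CCL3, and all 4 were lower in both JOA libraries than in both control libraries. Values are TPM, each transcript's share of the library on a scale of 1000000 after division by its length, which compare genes per length within this table. Summed over the 9 measured genes, the level was 94.7 and 110.9 TPM in the control libraries and 54.2 and 70.3 TPM with JOA. CCL5 made up 59.7% and 58.4% of that sum in the controls and 75.7% and 75.1% with JOA, so the makeup differed too. Of the 9 genes, 6 were lower with JOA without overlap of the groups, CXCL3 was higher without overlap and 2 overlapped. Without overlap, 11.0% of the 12941 genes tested in NB4 were lower and 32.5% higher, but the genes were picked on this contrast and nothing is read from their count. In bulk RNA, fewer cells of a kind and less RNA per cell cannot be told apart.

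**Figure D1:**
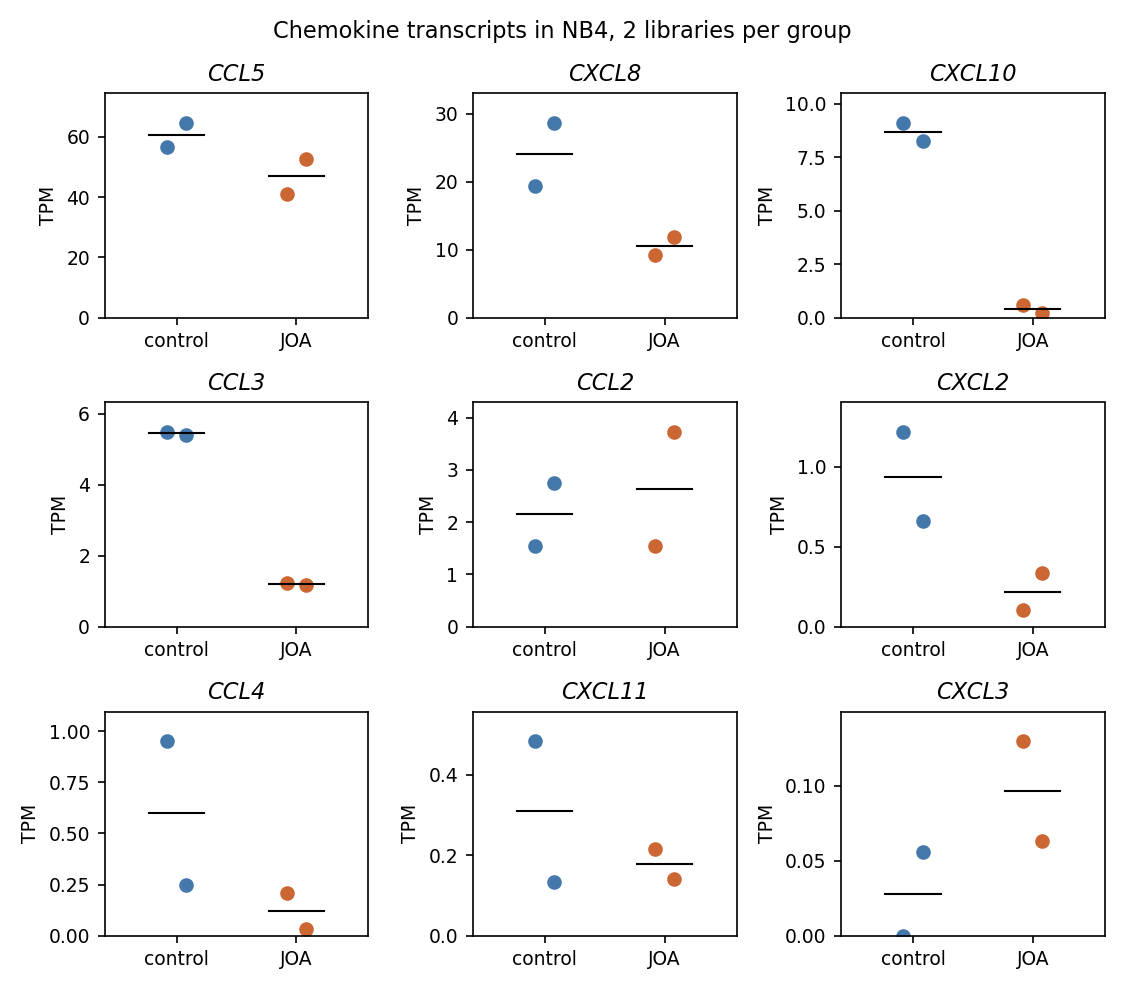
TPM of the 9 measured chemokines in NB4, by group, each panel on its own linear scale from 0, with 1 point per library and a line at the mean of 2 libraries. CXCL10 and CCL3 have closely placed points and a wide gap between groups, while CCL2 and CXCL11 overlap.

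CXCL10, the interferon-inducible CXCR3 ligand, had the largest change. Its level was 9.11 and 8.27 TPM in the control libraries and 0.585 and 0.224 TPM with JOA, so both treated libraries lay below 1 TPM. The ratio of the group means was 21.5-fold, and on the log2(TPM + 1) scale the change was -2.80 (SE 0.236, n = 2 per group). That scale adds a pseudocount of 1 and understates changes of genes at low level. With a pseudocount of 0.1 the change was -4.22. In limma on the whole NB4 table CXCL10 was the only gene called, at 0.00773% of genes, which is how it came to be listed and is no separate test of it. No gene was called with that pseudocount, without the filter on low values, with median-ratio scaling or without any 1 of the 4 libraries. All of its TPM lay on 1 transcript, ENST00000306602, with 4 exons.

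CXCL11, the neighbouring CXCR3 ligand, did not show this pattern. Its values were 0.484 and 0.133 TPM in the controls and 0.215 and 0.141 TPM with JOA, and the groups overlapped. All 4 values were under the 1 TPM that a gene needed in at least 2 libraries to be tested.

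CXCL8, also called interleukin-8, was measured at 19.4 and 28.7 TPM in the NB4 controls and at 9.18 and 11.8 TPM with JOA. The lower control library was still above the higher JOA library, and the means, 24.0 ± 6.58 and 10.5 ± 1.85 TPM (SD, n = 2), differed 2.29-fold. The log2 change was -1.11 (SE 0.215), and it lay between -1.38 and -0.84 when each library was left out.

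Both protein-coding transcripts of CXCL8 were lower. The 4-exon form, ENST00000307407, had 13.6 and 15.2 TPM in the controls and 5.44 and 7.34 TPM with JOA. The 3-exon form, ENST00000401931, went from 5.04 and 8.98 TPM to 2.92 and 4.06 TPM. A retained-intron form, ENST00000483500, had 0.704 and 4.52 TPM in the controls and 0.820 and 0.403 TPM with JOA, so its groups overlapped, and 1 control library held most of it. On protein-coding transcripts only, the change of CXCL8 was -1.05.

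CCL3, also called MIP-1 alpha, was 5.49 and 5.40 TPM in the NB4 controls and 1.22 and 1.18 TPM with JOA. The 2 libraries of each group were closer to each other than in any other chemokine tested, and the means differed 4.53-fold. The log2 change was -1.55 (SE 0.212). The difference was in the spliced 3-exon transcript ENST00000613922, at 5.21 and 5.11 TPM against 0.917 and 1.02 TPM. The retained-intron transcript ENST00000614051, at 0.281 and 0.296 TPM in the controls and 0.306 and 0.158 TPM with JOA, overlapped between groups. CCL3 has a near-identical copy, CCL3L3, measured at 0.121, 0.109, 0.0895 and 0.0625 TPM in control 1, control 2, JOA 1 and JOA 2. All of that lay on ENST00000612839, a retained-intron transcript, and no spliced coding transcript of CCL3L3 had a value. The level of its coding mRNA is therefore not known, and how reads were split between the copies is uncertain.

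CCL4, or MIP-1 beta, the neighbour of CCL3, was listed at 0.953 and 0.248 TPM in the controls and 0.208 and 0.0335 TPM with JOA. The groups did not overlap, but the controls lay far apart and no library reached 1 TPM. Its protein-coding transcript, ENST00000615863, had 0.885 and 0.186 TPM in the controls and was at or near 0 in both JOA libraries. Its copy CCL4L2 was measured at 0.467 and 0.145 TPM in the controls and 0.270 and 0 TPM with JOA, with the same uncertainty about shared reads.

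CCL5, or RANTES, was the most abundant of these mRNAs in NB4 by TPM. It was 56.5 and 64.7 TPM in the controls and 41.0 and 52.8 TPM with JOA, and above 80.9% of the tested genes by its control mean. The groups did not overlap, but the higher JOA library was close to the lower control library. The mean changed by -22.7%, and the log2 change, -0.37 (SE 0.148), was the smallest of the 4 lower genes tested.

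CCL2, or MCP-1, the main ligand of CCR2, showed no separation of the groups. It was 1.55 and 2.75 TPM in the NB4 controls and 1.55 and 3.73 TPM with JOA. The log2 change was 0.17 (SE 0.348) and its sign turned in 2 of 10 alternative settings, with a range of -0.28 to 0.61. The lower library of each group was at almost the same level.

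CXCL2 and CXCL3, relatives of CXCL8 that share its receptor CXCR2, were near the lower end of detection in NB4. CXCL2 was 1.22 and 0.658 TPM in the controls and 0.102 and 0.336 TPM with JOA, lower without overlap. CXCL3 was 0 and 0.0555 TPM in the controls and 0.130 and 0.0632 TPM with JOA, the only 1 of the 9 that was higher without overlap. At such levels, and with unknown depth, a value may rest on very few reads.

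In Kasumi-1, CXCL8 was higher in every JOA library than in every control, and CCL5 overlapped between groups. Values are FPKM, which scale fragments by gene length and library size, and levels are not set against those of NB4, whose table was normalised separately. CXCL8 was 1.09, 0.955 and 1.92 FPKM in control libraries 1 to 3 and 3.31, 2.85 and 5.51 FPKM in JOA libraries 1 to 3. The lowest JOA library was above the highest control, as for 16.0% of the 12101 genes tested, a share from which nothing is read here because CXCL8 was chosen on this contrast. The means differed 2.94-fold, and the log2 change was 1.06 (SE 0.233, n = 3 per group).

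The FPKM steps show how many fragments lie behind these values. CXCL8 rested on 45, 38 and 72 fragments in the controls and 125, 110 and 208 with JOA, or 155 against 443 in all. Library 3 was the highest of its group on both sides. The JOA values were 3.02, 2.99 and 2.88 times those of the same-numbered controls, so the ratio was far more even than the levels. In the fit with the replicate number as a block, the SE of the CXCL8 change was 0.0788. No exact 95% Poisson interval of a JOA library reached that of control 1 or 2. The interval of JOA 2, from 2.35 to 3.44 FPKM, overlapped that of control 3, from 1.50 to 2.41 FPKM. These intervals cover counting error only.

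**Figure D2:**
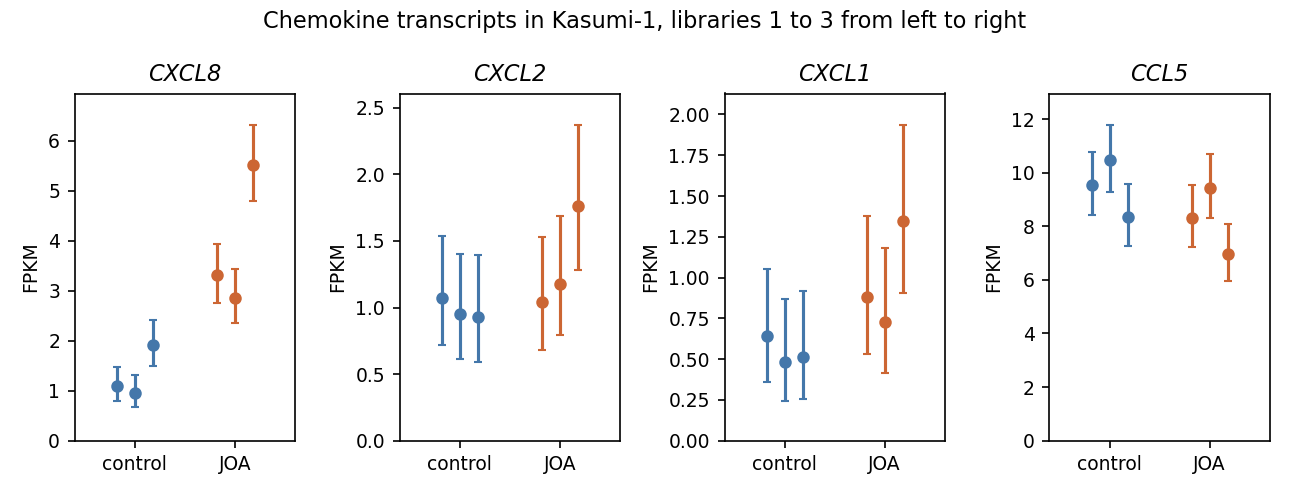
FPKM of CXCL8, CXCL2, CXCL1 and CCL5 in Kasumi-1, each panel on its own linear scale from 0, with 1 point per library and bars for the exact 95% Poisson interval of its fragment count. The 3 JOA points of CXCL8 lie above all 3 control points, and library 3 is the highest of its group in both.

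CXCL2 in Kasumi-1 was 1.07, 0.952 and 0.927 FPKM in the controls and 1.04, 1.18 and 1.77 FPKM with JOA. The groups overlapped, and only JOA 3, with 44 fragments against 23 to 30 in the other 5 libraries, stood above the rest. The log2 change was 0.22 (SE 0.148). CXCL1, a relative of CXCL2 that is not among the listed genes, had 15, 11 and 11 fragments in the controls and 19, 16 and 29 with JOA, and too few libraries reached 1 FPKM for a test. JOA 3 was thus the highest library for CXCL8, CXCL2 and CXCL1.

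CCL5 held the largest share of the chemokine sum in Kasumi-1 by FPKM. It was 9.54, 10.5 and 8.36 FPKM in the controls and 8.32, 9.44 and 6.97 FPKM with JOA. The groups overlapped, yet each JOA library was below its same-numbered control, at 0.871, 0.902 and 0.833 times its level. The log2 change was -0.18 (SE 0.119, or 0.0461 with the replicate block). Because CXCL8 was higher and CCL5 was not, CCL5 made up 73.7 to 84.6% of the sum of the 5 measured genes in the controls and 48.9 to 69.8% with JOA. CXCL8 made up 7.72 to 16.9% in the controls and 21.1 to 38.7% with JOA.

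The CXCR3 ligands were at the limit of detection in Kasumi-1. CXCL10 had 0, 0 and 2 fragments in the controls and 1, 1 and 0 with JOA. CXCL11 had 1 fragment, in control 3. A fall like that of CXCL10 in NB4 could not have been seen at this level.

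CXCL8 thus went in opposite directions in the 2 lines, a pattern on which it was chosen. The log2 change in Kasumi-1 minus that in NB4 was 2.17 (SE 0.349) for CXCL8. It was 0.19 (SE 0.198) for CCL5, which was lower on average in both lines. For CXCL2 it was 0.88 (SE 0.232), from a gene that passed the filter on low values in Kasumi-1 only. For CXCL10 it was 2.80 (SE 0.179), all of it from NB4. That SE is below the 0.236 of the NB4 fit alone. The variance was pooled over both lines, and CXCL10 varied little near the floor in Kasumi-1, so 0.179 understates the uncertainty. In the fit across the 7261 genes that had a symbol in both tables and passed the filter in at least 1 line, limma called a difference in 0.193% of genes.

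**Figure D3:**
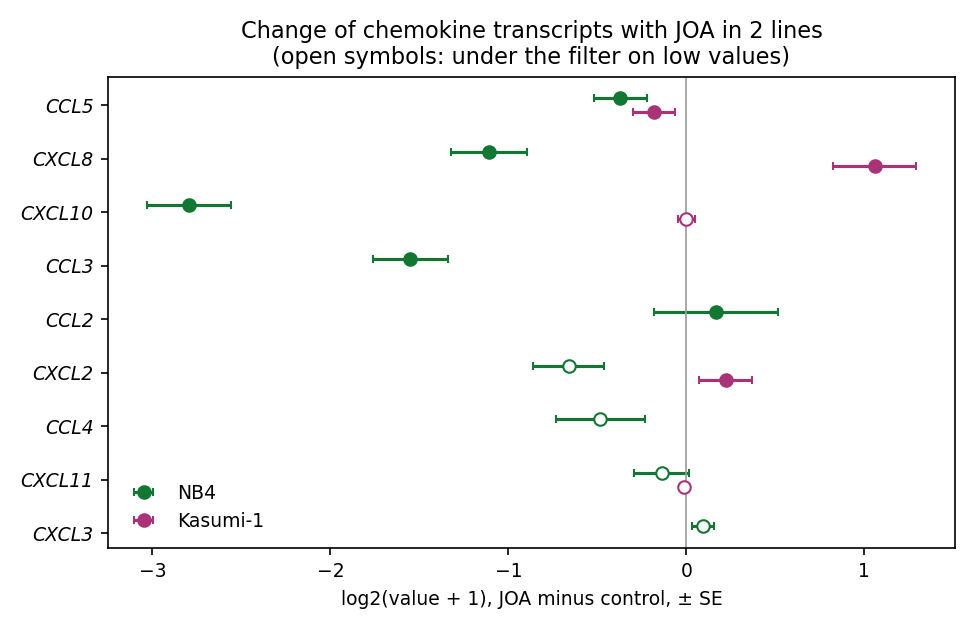
Change of each chemokine on the log2(value + 1) scale, JOA minus control, with the SE from limma, for NB4 (green) and Kasumi-1 (purple), where filled points passed the filter on low values and open points did not. CXCL8 is at -1.11 in NB4 and at 1.06 in Kasumi-1, and CCL5 is below 0 in both.

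The other genes of the pathway were taken as 11 lists with 225 genes, from ligands through receptors to the factors that act on chemokine genes. In limma, with p-values adjusted over all genes of a table, 0 of the 151 list genes tested in NB4 and 0 of the 66 in Kasumi-1 passed an adjusted p of 0.05. Over all genes, those shares were 0.00773% and 0%. At an unadjusted p under 0.05, 16 list genes were higher and 14 lower in NB4, where 8.20% of all genes were higher and 2.42% lower. In Kasumi-1, 18 list genes were higher and 1 lower, where 11.7% of all genes were higher and 4.68% lower. In the fit with the replicate block, 3 rose and 1 fell in Kasumi-1, where 6.08% of all genes rose and 2.06% fell. With the variance shared over both lines, 4 rose and 2 fell among the 91 list genes fitted in NB4, where 1.68% of 7261 genes rose and 0.468% fell. In Kasumi-1 0 of those 91 passed in that fit, against 0.0551% of all its genes.

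**Figure D4:**
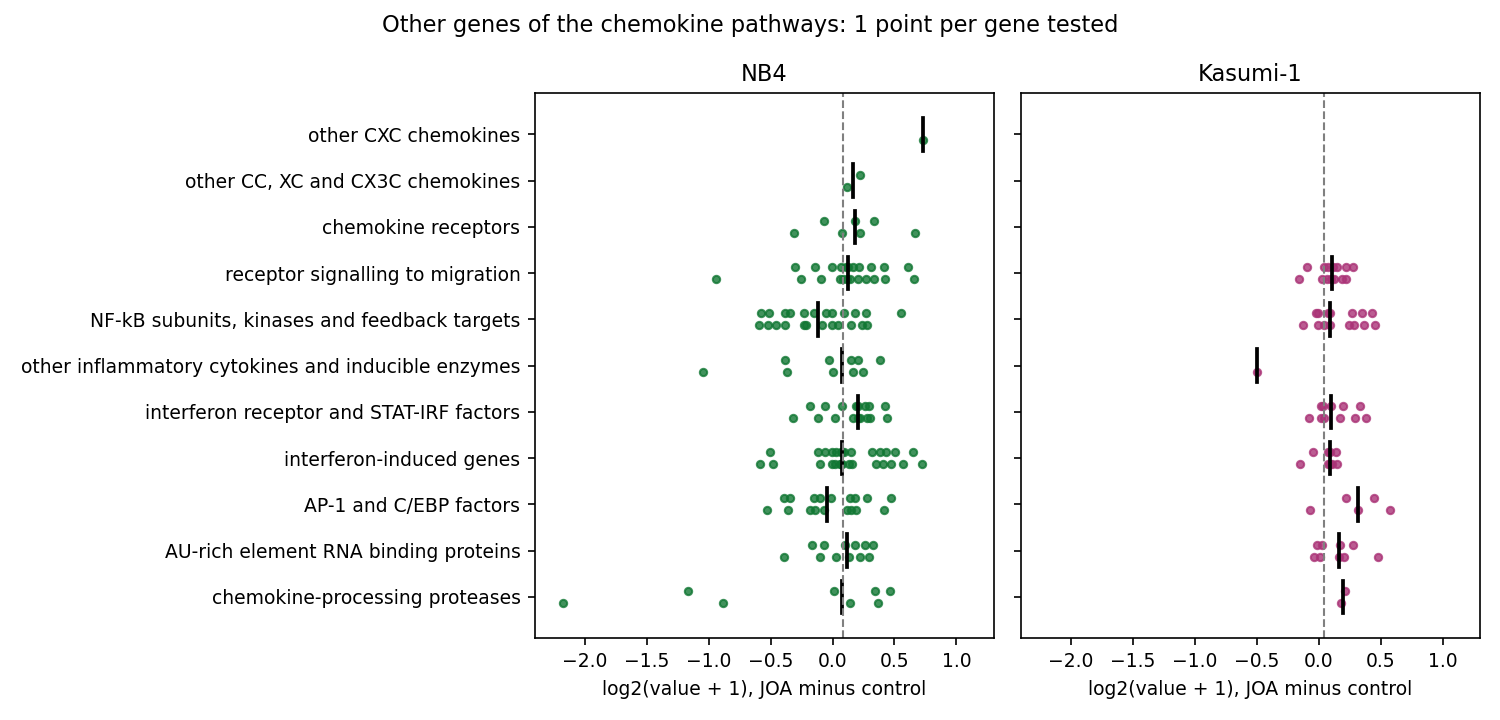
Change on the log2(value + 1) scale, JOA minus control, of every pathway list gene tested, with 1 point per gene, a black bar at the list's median and a dashed line at the median of all genes tested (0.085 in NB4 and 0.047 in Kasumi-1). The NF-kB list is the only 1 of those with 5 or more genes tested whose median is below -0.1 in NB4, at -0.12, and its Kasumi-1 median is 0.095.

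Among other ligands in NB4, CXCL16, a membrane-bound chemokine and scavenger receptor, rose in the fit with shared variance (adjusted p = 0.0481, against 0.450 in NB4 alone). It went from 0.698 and 0.294 TPM to 1.13 and 1.84 TPM. The shared fit pools the spread of both lines. In Kasumi-1 CXCL16 was at most 0.215 FPKM, where log2(FPKM + 1) varies little, and this can lower the adjusted p for NB4. CXCL16 also met the filter through the NB4 JOA libraries only, the group where it was higher. Such a filter favours a rise, so nothing is read from the call of CXCL16. CCL20, the ligand of CCR6, was 6.38 and 7.86 TPM in the controls and 6.89 and 8.72 TPM with JOA, and the groups overlapped. CCL1 was 0.584 and 0.567 TPM in the controls and was listed at 0 in both JOA libraries.

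Receptors for the listed chemokines were low apart from a few. In NB4, 7 of 22 measured receptor genes were tested, with 5 log2 changes above 0 and 2 below and a median of 0.18. CCR1, a receptor of CCL3 and CCL5, rose in the fit with shared variance (adjusted p = 0.0389, against 0.316 without it), from 4.92 and 4.11 TPM to 7.26 and 8.19 TPM. In Kasumi-1 CCR1 was at most 0.263 FPKM, so, as for CXCL16, the pooled spread can lower its adjusted p in the shared fit. CCR2, the receptor of CCL2, was 3.68 and 3.33 TPM in the controls and 4.93 and 4.43 TPM with JOA. CXCR3, the receptor of CXCL10, was 1.40 and 1.51 TPM in the controls and 1.50 and 1.19 TPM with JOA, overlapping. CXCR4, which binds CXCL12 and none of the listed chemokines, was the most abundant receptor at 65.8 and 69.9 TPM against 60.1 and 49.3 TPM. In Kasumi-1, 13 of the 24 listed receptors were found by symbol, and 0 of these passed the filter. The rest, CXCR4 among them, were not found, so their level there is not known. CXCR2, a CXCL8 receptor, was between 0.707 and 1.13 FPKM in all 6 Kasumi-1 libraries.

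Downstream of the receptors, the regulator of G protein signalling RGS16 was 20.7 and 30.6 TPM in the NB4 controls and 13.3 and 12.0 TPM with JOA. It fell in the fit with shared variance (adjusted p = 0.0194) and not in the fit of NB4 alone (adjusted p = 0.200). GNG2, a G protein gamma subunit, rose in the shared fit (adjusted p = 0.0420, against 0.318 in NB4 alone), from 10.5 and 7.98 TPM to 14.4 and 14.5 TPM. Of the 23 genes of this list tested in NB4, 17 log2 changes were above 0, with a median of 0.13 against 0.085 over all genes.

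The NF-kB list holds subunits, kinases and feedback targets of the pathway. In NB4, 16 of its 24 log2 changes were below 0, and in Kasumi-1 4 of 15, while over all genes tested 66.2% of changes in NB4 and 61.9% in Kasumi-1 were above 0. BIRC3, a target that encodes an inhibitor of apoptosis, fell in NB4 in the shared fit (adjusted p = 0.0420, against 0.507 in NB4 alone). It went from 1.77 and 1.60 TPM to 0.753 and 0.986 TPM. In NB4 it met the filter of 1 TPM through the controls only, the group where it was higher. Such a filter favours a fall, so nothing is read from the call of BIRC3. NFKBIA, the inhibitor that NF-kB itself induces, was 58.2 and 64.0 TPM in the NB4 controls and 53.2 and 50.5 TPM with JOA, with an adjusted p of 0.234 in that fit. RELA, the main activating subunit, was 97.0 and 91.3 TPM against 92.5 and 84.7 TPM, overlapping. ICAM1, an adhesion molecule and NF-kB target, rose in Kasumi-1 in limma with the replicate block (adjusted p = 0.0343, against 0.146 without it). It went from 3.06, 3.02 and 2.33 FPKM to 4.55, 4.12 and 3.92 FPKM. The fit with the block is called paired below, by the replicate numbers, though no label pairs the libraries. In NB4 ICAM1 was 18.4 and 23.5 TPM in the controls and 12.9 and 19.1 TPM with JOA, overlapping. The difference of the ICAM1 changes between lines, 0.83 (SE 0.233), had an adjusted p of 0.224 in limma.

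Of the AP-1 and C/EBP factors, JUND (adjusted p = 0.0296, against 0.153 unpaired) and CEBPB (0.0323, against 0.116) rose in the paired Kasumi-1 fit. CEBPB, a factor known to act on the CXCL8 promoter, went from 4.21, 4.41 and 3.90 FPKM to 7.72, 6.03 and 6.40 FPKM, without overlap. In NB4, 8 of the 18 log2 changes of this list were above 0 and 10 below, and JUND was 37.1 and 40.4 TPM in the controls and 45.3 and 29.9 TPM with JOA.

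The list of interferon-induced genes, which as a class share inducers with CXCL10, was not lower as a whole in NB4. A part of interferon in the CXCL10 change was not tested. Of 29 tested, 21 log2 changes were above 0 and 8 below, with a median of 0.075 against 0.085 over all genes, and 0 passed the test in NB4 alone or with shared variance, with 2 higher and 0 lower at an unadjusted p under 0.05. IFI6, the most abundant, was 321.9 and 179.7 TPM in the controls and 444 and 119.5 TPM with JOA, with a wide spread within both groups.

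Among inflammatory cytokines, TNF, an inducer of many chemokines, was 12.4 and 19.9 TPM in the NB4 controls and 14.0 and 21.9 TPM with JOA. In Kasumi-1, TNFSF13B, a B cell survival factor, fell in the paired fit (adjusted p = 0.0290, against 0.116 unpaired), from 26.7, 26.9 and 22.2 FPKM to 18.7, 17.0 and 16.9 FPKM.

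Of the proteases known to trim chemokines, PRTN3 and CTSG, the granule proteases proteinase 3 and cathepsin G, had the widest gaps in NB4. They did not pass the main test there. With the replicate block, whose numbers were not taken as pairs in NB4, 2 genes of this list fell, and 53 of all 12941 genes tested. PRTN3 was 141 and 257 TPM in the controls and 41.9 and 41.0 TPM with JOA (adjusted p = 0.0948 in limma), and CTSG 335 and 396 TPM against 217 and 119.6 TPM (adjusted p = 0.201). FURIN rose in NB4 in the shared fit (adjusted p = 0.0336, against 0.305 in NB4 alone), from 38.7 and 33.1 TPM to 52.4 and 47.2 TPM.

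As for the cells themselves, MPO, a myeloid granule gene, was at 4679 TPM or more in every NB4 library and at 5289 FPKM or more in every Kasumi-1 library. The summed level of 10 myeloid markers in NB4 was 8875 to 9007 TPM in the controls and 5308 to 6701 TPM with JOA. Of the 10 monocyte and macrophage markers, 8 were measured in NB4, 6 of them under 1 TPM throughout, with a sum of 14.8 to 16.9 TPM in the controls and 16.4 to 18.4 TPM with JOA. CD14, under 1 TPM throughout and not tested, was 0.457 and 0.386 TPM in the controls and 0.913 and 0.731 TPM with JOA. Of the 2 monocyte and macrophage markers tested, 1 log2 change was above 0 and 1 below, and both overlapped between groups. The 9 T and NK cell markers summed to 39.8 to 42.9 TPM and 48.2 to 59.7 TPM, mostly CD3D. In the same order, the 10 fibroblast, endothelial and epithelial markers summed to 43.5 to 44.2 TPM and 59.0 to 61.4 TPM, the 4 measured B cell markers to 19.6 to 19.7 TPM and 24.21 to 24.96 TPM, and the 9 neutrophil markers to 3.20 to 4.05 TPM and 5.30 to 8.47 TPM. Mitochondrially encoded transcripts held 14.6 and 16.4% of the TPM in the NB4 controls and 11.2 and 13.1% with JOA, and without them the CXCL10 change was -2.96 and that of CXCL8 -1.17. The part of the marker genes in the chemokine values was not tested.

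Across all 10 libraries, the profiles nearest to that of CXCL8 were those of EGR1, SEC61A2 and MICA, at distances of 1.16, 1.19 and 1.24 on the centred log2(value + 1) scale, where a flat profile is 1.90 away. EGR1, an immediate-early transcription factor, was 1.74, 2.02 and 2.91 FPKM in the Kasumi-1 controls and 5.62, 4.63 and 8.40 FPKM with JOA. In NB4 EGR1 was 53.3 and 44.4 TPM against 46.6 and 33.2 TPM, overlapping, so its groups separated in Kasumi-1 only. SEC61A2 was higher without overlap in Kasumi-1, from 2.43, 2.67 and 2.56 FPKM to 3.99, 3.48 and 4.84 FPKM. In NB4 SEC61A2 was lower without overlap, from 5.54 and 6.29 TPM to 4.17 and 4.74 TPM. MICA, a stress-induced ligand of the receptor NKG2D, was lower in NB4 without overlap, from 1.75 and 1.89 TPM to 0.861 and 0.512 TPM, and overlapped in Kasumi-1. Over the 4 NB4 libraries alone, the profiles nearest to CXCL10 were those of ENSG00000232646 at 0.482, C1orf100P1 at 0.739 and SRP14P4 at 0.845, where a flat profile is 2.81 away, and all 3 genes were listed at 0 in both JOA libraries. Nearest to CCL3 were SDK2 at 0.123, RPL35AP6 at 0.189 and IGLL1 at 0.321, where a flat profile is 1.55 away. SDK2, an adhesion molecule, went from 2.12 and 1.73 TPM to a listed value of 0 in both JOA libraries. IGLL1, the surrogate light chain of the pre-B cell receptor, went from 3.24 and 3.63 TPM to 0.697 and 0.243 TPM.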

How the data were processed

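The authors deposited FPKM values for Kasumi-1, by the name of the deposited table, and a table for NB4 that is named for FPKM, but whose columns each sum to just under 1000000, so that the deposited NB4 values were taken as TPM. Trimmomatic, HISAT2, Cufflinks, HTSeq and hg38 are listed without roles, per the submitters' processing notes, and libraries were made with a stranded mRNA kit, per the labels' protocols. NB4 transcripts, 93.9% of them matched to GENCODE, were summed to genes. Of 29053 Kasumi-1 rows, 10906 were matched to a symbol. Of 11527 low Kasumi-1 rows, 96.1% held whole fragments within 0.01 of a fragment, at a depth of 91.4 to 100% of control 1, and the smallest whole counts were used. TPM keeps no depth, so that of NB4 is unknown.

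Each line was fitted alone with limma 3.58.1 (R 4.3.3, Python 3.11.15) on log2(value + 1), for genes that reached 1 in 2 or more NB4 or 3 or more Kasumi-1 libraries, with Benjamini-Hochberg adjustment over all genes. The design had named FPKM or TPM for NB4, and the test is the same for both. Members under the filter have their change from a fit without it. Deviations of same-numbered Kasumi-1 libraries correlated at 0.330, 0.500 and 0.424 and all others at -0.0611 or below. On that ground alone, since no label pairs them, the numbers were used as pairs in the fit with the block. The main fit had no block. Deviations cancel within a group, so the negative correlations are no separate support for the pairs. The genes and lists were chosen with earlier results of these data known. The genes named are the 10 members, the nearest profiles and some list genes. Named list genes passed the shared fit in NB4 or the block fit in Kasumi-1, or otherwise were among a list's 4 most abundant in the controls. Alternatives were other pseudocounts, filters and scalings, the block, shared variance and leaving out each library.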

Additional observations from a re-analysis of the deposited data

Results flagged for a closer look

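The change with JOA differed in direction between the lines for CXCL8, with a log2 difference of 2.17 between Kasumi-1 and NB4, and every JOA library lay above the controls in Kasumi-1 and below them in NB4. For CXCL10 the log2 difference was 2.80, with at most 2 fragments per library in Kasumi-1. Both genes were listed for these changes, so the differences are given without a test.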

How the results depend on the processing

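The change of CXCL8 and CCL5 in both lines, of CXCL2 in Kasumi-1, and of CXCL10 and CCL3 in NB4 kept its direction under every alternative run, and that of CCL2 in NB4 did not. Where the groups did not overlap, leaving out 1 library could not turn the direction. The fits without the filter, with the block or with shared variance give the same change by construction and differ in the SE only. Genes called in Kasumi-1 numbered 0, against 985 with the replicate block, 4 with shared variance and 0 to 1 when each library was left out, the 1 without JOA library 2. In NB4, 1 gene was called, against 0 with a pseudocount of 0.1, 0 without the filter, 0 with median-ratio scaling, 0 without any 1 library, 13 on protein-coding transcripts, 156 with shared variance and 146 with the block. NB4 replicate numbers were not taken as pairs, since same-numbered libraries deviated together at a correlation of 0.0652. List genes called numbered 4 in Kasumi-1 with the block, and in NB4 4 with the block, 1 on protein-coding transcripts and 6 with shared variance. A difference between lines was called for 14 genes, against 2 with a pseudocount of 0.1, 36 without the filter, 36 with the block, 1 after rescaling and 2 to 111 when each library was left out, the 111 without NB4 control 1. The causes of these changes were not tested. Depth limits CXCL10 and CXCL11 in Kasumi-1, and in NB4 it is unknown.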
